A study of Rattus norvegicus with 24 samples.

Results

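The genes examined were the VEGF ligands and the receptors that bind them, 9 genes in all. Vegfa, Vegfb, Vegfc and Pgf encode the ligands. Flt1, Kdr and Flt4 encode the receptor tyrosine kinases VEGFR1, VEGFR2 and VEGFR3, and Nrp1 and Nrp2 encode the neuropilin co-receptors. They were found by gene symbol among the 34523 genes of a count table, and 8 of the 9 were among the 14770 genes with enough counts to be tested. Kdr was the one that was not.

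Counts came from 24 RNA-seq libraries of rat PMVECs, a line labelled as endothelial cells of the lung's small vessels. Cells carried a PFKFB3 knockout (KO) or were wild type (WT). PFKFB3 is an enzyme that makes the sugar bisphosphate which speeds up glycolysis. The 8 groups of 3 libraries were KO and WT cells, each kept for 24 h with 25 mM fructose or 25 mM glucose, under hypoxia or normoxia. No group had both sugars or neither, so the effect of fructose cannot be told apart from that of the absence of glucose. The labels give neither the oxygen level, the clone nor the altered part of the gene, and they do not say that the numbered libraries of a group were separate cultures. Every p-value therefore measures only the spread between these libraries, which may be technical.

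VEGF-A drives the growth and leakiness of blood vessels mainly through VEGFR2, while VEGFR1 binds VEGF-A, VEGF-B and placental growth factor tightly and signals weakly. VEGF-C acts mainly through VEGFR3, the receptor best known from lymphatic vessels, and the neuropilins hold ligands near the kinases and also bind class 3 semaphorins. Low oxygen raises Vegfa transcription through hypoxia-inducible factors (HIFs), and shortage of nutrients can raise it through the stress factor ATF4.

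Libraries held 14344010 to 23028807 counts. Levels are in CPM, the count scaled to a library total of 1000000, and changes are log2 fold changes ± standard error from edgeR's quasi-likelihood test over all genes, with Benjamini-Hochberg adjusted p-values and a threshold of 0.05. Pfkfb3 was lower in KO libraries in every medium (log2 change -1.50 ± 0.090, -0.56 ± 0.090, -1.77 ± 0.092 and -0.59 ± 0.091 in hypoxia with fructose, hypoxia with glucose, normoxia with fructose and normoxia with glucose), and transcripts remained, so its level is only a partial check of the genotype. The endothelial label found limited backing among the markers: of 14 endothelial markers in the table, 7 stayed below 1 CPM in every library, Emcn, Clec14a, Robo4 and Cldn5 had 0 counts, and Cdh5, the gene of VE-cadherin, did not pass 0.514 CPM. The marker sum was 114.6 to 141.4 CPM in KO libraries and 31.85 to 42.01 CPM in WT libraries, with Vwf the largest part in KO and Egfl7 in WT libraries by mean. Vwf averaged 57.3 CPM in KO and 9.76 CPM in WT libraries, and Icam2 42.8 and 6.27 CPM. Of the tested endothelial markers Tek alone averaged lower in KO (0.843 CPM, against 3.87 CPM in WT). The fibroblast marker sum, nearly all collagen I transcripts, ran the other way from the endothelial sum, at 2381 to 4445 CPM in KO and 5958 to 17940 CPM in WT libraries, while the fibroblast markers Lum and Thy1 had 0 counts. The epithelial marker sum, mostly the keratin gene Krt8, was 1534 to 2916 CPM in KO and 664.7 to 1142 CPM in WT libraries, and the lung epithelial markers Sftpb and Nkx2-1 had 0 counts. Of the tested epithelial markers Krt19 alone averaged lower in KO (0.841 CPM, against 2.20 CPM in WT). Of the lymphatic endothelial markers Prox1 and Ccl21 had 0 counts and Lyve1 did not pass 0.198 CPM, while Pdpn averaged 390.0 CPM in KO and 228.5 CPM in WT libraries. The smooth muscle and pericyte sum (8 genes, 2 below 1 CPM in every library, Rgs5 at 0 counts) was 169.4 to 302.9 CPM in KO libraries, and in WT libraries 206.1 to 334.5 CPM with fructose and 77.65 to 106.7 CPM with glucose. Its genes moved with genotype in both directions. Acta2 averaged 7.77 CPM in KO and 95.9 CPM in WT libraries, against 154 and 48.5 CPM for Des and 33.7 and 11.9 CPM for Pdgfrb. The leukocyte sum (7 genes, 4 below 1 CPM in every library, Csf1r the largest part by mean) was 11.98 to 19.73 CPM in KO hypoxia and 3.024 to 5.511 CPM in KO normoxia libraries, against 2.497 to 5.739 CPM in WT libraries, while the pan-leukocyte gene Ptprc did not pass 0.232 CPM. The endothelial, fibroblast, epithelial and lymphatic sums moved with genotype, as did the KO against WT results that passed, and their part in those results was not tested. In bulk RNA a smaller share of a cell type and less RNA per cell cannot be told apart.

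Per kilobase of transcript, which allows levels to be compared between genes, Vegfa was the most abundant ligand transcript in hypoxia and Vegfb in normoxia. Vegfa made up 61.1 ± 1.14% (SD, n = 3, as for all shares) of the summed ligand CPM per kb in KO and 60.6 ± 1.07% in WT cells in hypoxia with fructose, and 52.2 ± 2.58% in KO and 59.9 ± 1.80% in WT with glucose. In normoxia its share was 35.5 ± 3.04% in KO and 39.8 ± 3.21% in WT with fructose, and 35.6 ± 2.69% in KO and 31.5 ± 1.67% in WT with glucose. Vegfb held most of the remainder, up to 47.6 ± 3.66% in WT normoxia fructose. Pgf was a minor ligand transcript everywhere, with its highest share of 9.47 ± 0.327% in KO hypoxia glucose, against 3.74 ± 0.5% in WT in the same medium. Among the kinases Flt4 and Flt1 made up nearly everything, and Kdr did not pass 0.307 ± 0.158% in the mean of any group. Flt1 took 54.6 ± 3.86% of the kinase sum in KO and 26.7 ± 5.30% in WT cells in normoxia with glucose. Nrp2 far outweighed Nrp1, with a share of 92.1 ± 0.369% of the neuropilin sum in KO and 92 ± 0.573% in WT in hypoxia with fructose, and 89.3 ± 0.644% in KO and 78 ± 0.652% in WT in normoxia with glucose. VEGF-D, the remaining family ligand, is listed as Figf and had at most 5 counts in a library.

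**Figure D1:**
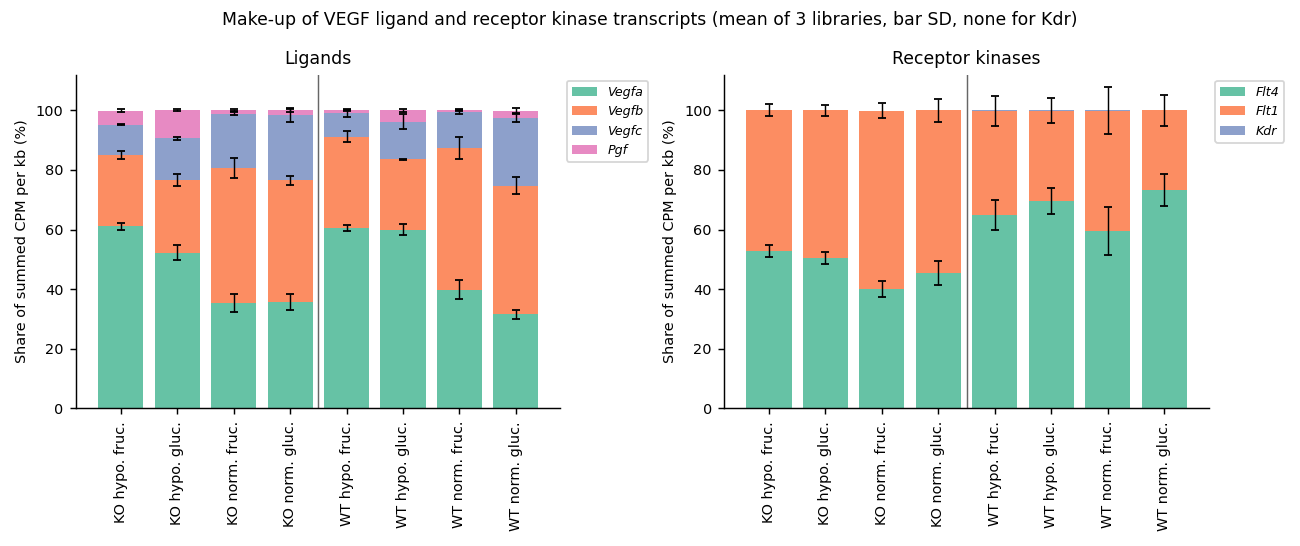
Share in percent (vertical axis) of each VEGF ligand (left panel) and receptor kinase (right panel) in the summed CPM per kb of its class, for the 8 groups along the horizontal axis, with KO groups left of the grey line and WT groups right of it. Segments are means of 3 libraries, and bars at the top of a segment are the SD of that gene's share. The Vegfa segment lies between 52.2 and 61.1% in the 4 hypoxia groups and between 31.5 and 39.8% in the 4 normoxia groups, and Kdr is too small to see.

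Vegfa (ENSRNOG00000019598, chromosome 9, 17340341 to 17355681 in Rnor_6.0, plus strand) rose in hypoxia in both genotypes and both sugars, and rose with fructose mainly in WT cells. In hypoxia with fructose its level was 540.4, 548 and 531 CPM in KO libraries and 908, 878 and 913 CPM in WT libraries. With glucose in hypoxia it was 413, 352 and 400.2 CPM in KO and 362, 333 and 412 CPM in WT. The genotypes thus stood apart in hypoxia with fructose and overlapped in hypoxia with glucose. In normoxia with fructose KO libraries had 169.9, 183 and 157 CPM and WT libraries 374, 368 and 279 CPM, and with glucose KO libraries had 129.5, 147 and 164 CPM and WT libraries 105, 122 and 115 CPM. In normoxia the KO libraries were the lower ones with fructose and the higher ones with glucose, with no overlap. The log2 change in hypoxia was 1.67 ± 0.10 in KO fructose, 1.41 ± 0.10 in KO glucose, 1.40 ± 0.10 in WT fructose and 1.69 ± 0.11 in WT glucose cells, with edgeR adjusted p-values from 2.96e-10 to 9.04e-12. Fructose changed Vegfa in KO cells by 0.48 ± 0.10 in hypoxia, which passed at adjusted p = 0.00485, and by 0.21 ± 0.10 in normoxia, which did not (adjusted p = 0.404). In WT cells it raised Vegfa 2.44-fold in hypoxia and 2.99-fold in normoxia (log2 change 1.29 ± 0.10 and 1.58 ± 0.10). With fructose Vegfa was lower in KO than in WT cells, with log2 changes of -0.74 ± 0.10 in hypoxia and -1.001 ± 0.10 in normoxia. With glucose it was higher in KO in normoxia (0.36 ± 0.10, adjusted p = 0.00573), and in hypoxia the difference of 0.07 ± 0.10 did not pass (adjusted p = 0.579). By group mean WT hypoxia fructose stood highest and WT normoxia glucose lowest. The groups next to each other overlapped only among KO hypoxia glucose, WT hypoxia glucose and WT normoxia fructose, and between KO normoxia fructose and KO normoxia glucose.

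Pgf (ENSRNOG00000005650, chromosome 6, 108994018 to 109004598, minus strand) encodes placental growth factor, a ligand of VEGFR1 and Nrp1. It had the largest hypoxia response of the 8 tested genes in KO cells with either sugar and in WT fructose cells. In WT glucose cells that of Vegfa was larger. Its libraries in hypoxia with fructose had 19.3, 16.6 and 19.2 CPM in KO and 5.80, 5.08 and 6.64 CPM in WT, and in hypoxia with glucose 30.2, 30.2 and 32.6 CPM in KO and 10.2, 8.06 and 12.3 CPM in WT. Under hypoxia all KO libraries were above all WT libraries with the same sugar. In normoxia it was read at 1.95, 2.27 and 3.28 CPM in KO and 1.51, 2.16 and 1.27 CPM in WT with fructose, and at 3.37, 3.41 and 1.75 CPM in KO and 4.58, 4.92 and 2.45 CPM in WT with glucose. These normoxia values rest on 21 to 91 counts a library, and the genotypes overlapped. Hypoxia raised Pgf 7.29-fold in KO fructose and 11-fold in KO glucose cells, against 3.52-fold in WT fructose and 2.56-fold in WT glucose cells (log2 change 2.87 ± 0.26, 3.46 ± 0.26, 1.81 ± 0.27 and 1.35 ± 0.25). The leukocyte marker sum, with Csf1r its largest part by mean, was likewise higher in KO hypoxia than in KO normoxia libraries (11.98 to 19.73 CPM against 3.024 to 5.511 CPM). Csf1r reached 18.07 CPM, while the next markers by mean, Cd68 and Cd3e, did not pass 1.425 and 1.498 CPM in any library. The rise of the sum is thus mainly that of 1 gene. The part of the sum in the Pgf change was not tested. Under hypoxia the level in KO cells was 3.15-fold that of WT cells with fructose and 3.04-fold with glucose (adjusted p = 2.86e-06 and 4.25e-06). In normoxia the KO against WT changes were 0.60 ± 0.29 with fructose and -0.50 ± 0.26 with glucose, and neither passed (adjusted p = 0.0794 and 0.128). The fructose value passed without KO normoxia fructose library 1 (0.0483), WT normoxia fructose library 2 (0.0345) or WT normoxia glucose library 3 (0.0483), and the glucose value without WT normoxia glucose library 3 (0.0204). The fructose change in KO cells was -0.17 ± 0.27 in normoxia (adjusted p = 0.894) and -0.75 ± 0.23 in hypoxia (adjusted p = 0.052). That hypoxia value passed without the filter on low counts (0.0494) and in DESeq2 (0.0141). It also passed without library 3 of KO normoxia fructose (0.0431) or of KO normoxia glucose (0.0284), or without library 2 or 3 of WT hypoxia glucose (0.0485 and 0.0462), of WT normoxia fructose (0.0466 and 0.0425) or of WT normoxia glucose (0.0482 and 0.0246). Fructose lowered Pgf in WT cells, with log2 changes of -0.80 ± 0.24 in hypoxia and -1.26 ± 0.28 in normoxia. The WT hypoxia change no longer passed without WT hypoxia glucose library 3 (adjusted p = 0.0521). In hypoxia the fructose change of Pgf in KO minus that in WT cells was 0.05 ± 0.33 (edgeR adjusted p = 0.945). A difference between genotypes in that response was thus not detected.

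Vegfb (ENSRNOG00000021156, chromosome 1, 222239022 to 222242644, minus strand) encodes VEGF-B, a VEGFR1 ligand linked to the handling of fatty acids. Its level followed sugar in WT cells and showed no passing change with hypoxia. With fructose it was 114, 106 and 98.2 CPM in KO and 222, 212 and 252 CPM in WT libraries in hypoxia, and 111, 99.1 and 117 CPM in KO and 209, 200.0 and 201 CPM in WT libraries in normoxia. With glucose it was 86.0, 94.9 and 93.9 CPM in KO and 72.2, 68.0 and 80.2 CPM in WT libraries in hypoxia, and 83.0, 81.7 and 88.9 CPM in KO and 77.1, 74.6 and 84.3 CPM in WT libraries in normoxia. The 6 WT fructose libraries were thus above all other 18. The fructose change in KO cells was 0.22 ± 0.082 in hypoxia (adjusted p = 0.136) and 0.37 ± 0.082 in normoxia, where it passed at 0.0158 but not without KO normoxia fructose library 1 (adjusted p = 0.0761) or 3 (0.112), or KO normoxia glucose library 1 (0.0691) or 2 (0.0924). In WT cells it was 1.64 ± 0.083 in hypoxia and 1.37 ± 0.083 in normoxia (adjusted p = 1.19e-13 and 6.78e-12). KO cells had less Vegfb than WT cells with fructose (-1.10 ± 0.082 in hypoxia and -0.90 ± 0.082 in normoxia). With glucose they had more in hypoxia (0.32 ± 0.082, adjusted p = 0.00252), and the normoxia value of 0.10 ± 0.082 did not pass (adjusted p = 0.318). The 4 hypoxia changes lay between -0.10 ± 0.082 in WT glucose and 0.17 ± 0.080 in WT fructose cells, with adjusted p-values of at least 0.144.

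Vegfc (ENSRNOG00000011416, chromosome 16, 40440207 to 40555576, minus strand), the VEGFR3 ligand gene, ranged from 40.6 to 81.8 CPM over the 24 libraries, and its highest group mean was 1.52-fold its lowest, against 18.8-fold for Pgf. In hypoxia with fructose it was 55.1, 53.2 and 54.6 CPM in KO and 66.1, 81.8 and 63.4 CPM in WT libraries, and in hypoxia with glucose 61.9, 61.3 and 62.4 CPM in KO and 46.2, 51.8 and 40.6 CPM in WT libraries. In normoxia it was 53.7, 53.0 and 51.2 CPM in KO and 61.7, 69.5 and 54.3 CPM in WT with fructose, and 54.1, 57.8 and 49.4 CPM in KO and 50.1, 51.5 and 46.2 CPM in WT with glucose. KO libraries were below WT libraries with fructose in both oxygen conditions and above them in hypoxia with glucose, and the genotypes overlapped in normoxia with glucose. The fructose change in KO cells was -0.19 ± 0.098 in hypoxia and -0.03 ± 0.099 in normoxia, neither passing (adjusted p = 0.325 and 0.96). Fructose raised Vegfc in WT cells by 0.61 ± 0.098 in hypoxia (adjusted p = 1.59e-05) and 0.33 ± 0.098 in normoxia (adjusted p = 0.01, or 0.104 without WT normoxia fructose library 2). Relative to WT, KO cells had less Vegfc in hypoxia with fructose (-0.38 ± 0.098, adjusted p = 0.0022) and more in hypoxia with glucose (0.42 ± 0.098, adjusted p = 0.000985). The normoxia fructose difference of -0.23 ± 0.098 passed narrowly (adjusted p = 0.0489) and was lost with DESeq2's size factors (0.0546), without the filter on low counts (0.0645), with DESeq2's Wald test (0.0613), and without KO normoxia fructose library 1 (0.0765), 2 (0.0879) or 3 (0.126) or WT normoxia fructose library 1 (0.088) or 2 (0.241). It was also lost without single libraries of other groups, namely any of the KO hypoxia libraries, library 1 or 2 of KO normoxia glucose or WT normoxia glucose, or library 1 of WT hypoxia fructose or WT hypoxia glucose (0.0515 to 0.0575). No hypoxia change of Vegfc passed, with values from -0.09 ± 0.099 in WT glucose to 0.20 ± 0.098 in KO glucose cells and adjusted p-values of at least 0.185.

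**Figure D2:**
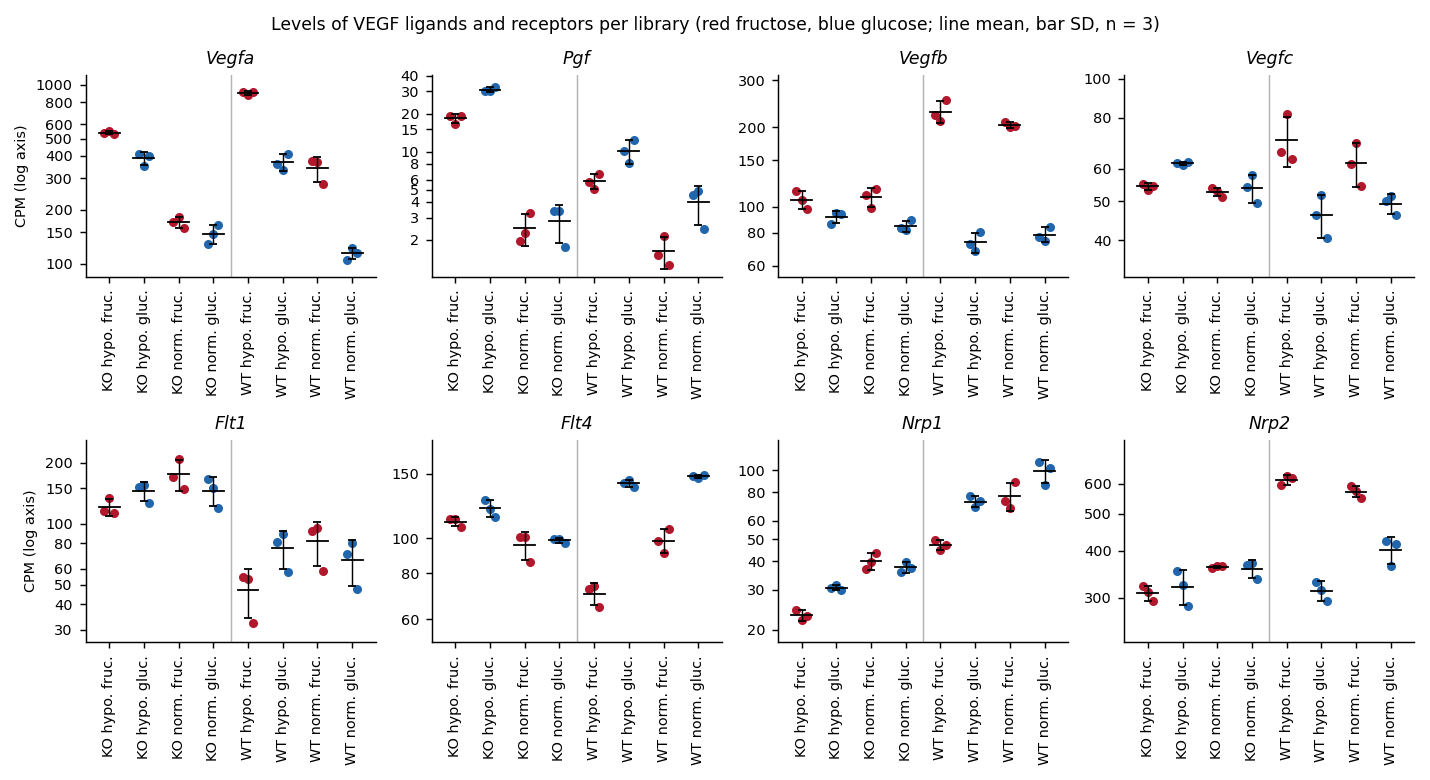
Level in CPM on a log axis (vertical) of the 8 tested VEGF ligand and receptor genes in each library, by group along the horizontal axis, with KO groups left of the grey line and WT groups right of it. Points are libraries (red fructose, blue glucose), horizontal lines means and bars SD (n = 3). Vegfa and Pgf are higher in every hypoxia group than in the normoxia group of the same genotype and sugar, Vegfb and Nrp2 stand highest in the WT fructose groups, all 12 KO libraries exceed all 12 WT libraries for Flt1, and the reverse holds for Nrp1.

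Promoter sequence is shown for the genes that rose in hypoxia (Vegfa and Pgf) and for those that stood highest in WT fructose (Vegfb and Nrp2). The sequences are from RefSeq's GRCr8 assembly, which is not the build of the count table, and give the 250 bases before the annotated start, 5′ to 3′ on the gene's strand. Capitals mark the HIF core motifs ACGTG and GCGTG on either strand (CACGT and CACGC on the other strand).
Vegfa, chr9:22452604-22452853, plus strand: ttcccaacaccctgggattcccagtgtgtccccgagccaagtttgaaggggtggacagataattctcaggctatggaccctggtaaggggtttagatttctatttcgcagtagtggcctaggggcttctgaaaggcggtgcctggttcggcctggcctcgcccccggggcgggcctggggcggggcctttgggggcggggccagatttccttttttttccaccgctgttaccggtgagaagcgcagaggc
Pgf, chr6:110557748-110557997, minus strand: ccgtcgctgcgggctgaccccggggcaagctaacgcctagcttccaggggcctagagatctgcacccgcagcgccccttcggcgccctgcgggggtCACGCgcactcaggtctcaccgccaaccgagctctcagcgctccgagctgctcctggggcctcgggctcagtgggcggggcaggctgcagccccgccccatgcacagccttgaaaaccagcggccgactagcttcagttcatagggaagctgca
Vegfb, chr1:213607153-213607402, minus strand: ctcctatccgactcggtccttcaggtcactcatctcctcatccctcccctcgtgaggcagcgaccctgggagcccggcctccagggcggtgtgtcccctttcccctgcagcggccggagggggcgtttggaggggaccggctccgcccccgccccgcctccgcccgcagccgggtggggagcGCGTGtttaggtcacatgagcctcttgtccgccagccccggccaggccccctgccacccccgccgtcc
Nrp2, chr9:71617004-71617253, plus strand: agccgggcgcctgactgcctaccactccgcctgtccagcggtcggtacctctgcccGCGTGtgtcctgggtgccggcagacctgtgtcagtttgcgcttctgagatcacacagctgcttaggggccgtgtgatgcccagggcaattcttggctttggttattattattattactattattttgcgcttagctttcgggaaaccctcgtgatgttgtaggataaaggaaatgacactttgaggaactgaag
Promoters of all 9 genes were in the table, and 6 of the 9 held a core. Pgf had 1 that begins 154 bases before its start, Vegfb 1 at 68 bases and Nrp2 1 at 194 bases, and each was GCGTG or its complement. Flt1 (227 bases), Nrp1 (158 bases) and Kdr (145 and 103 bases) also held cores, while neither Vegfa's 2 entries nor those of Vegfc and Flt4 did. Of all 33469 rat promoter entries, 36.7% held at least 1 of the cores in the same window. The GC box GGGCGG, counted on both strands, occurred 3 times in the Vegfa sequence shown, 2 times in that of Pgf and 4 times in that of Vegfb, not in that of Nrp2, and in 30.5% of all entries. A match describes these letters only, and a core outside the window would not be seen.

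Flt1 (ENSRNOG00000000940, chromosome 12, 9034308 to 9205905, plus strand), the gene of VEGFR1, was higher in KO than in WT cells in every medium. Its level in hypoxia was 116, 135 and 114 CPM in KO and 54.7, 53.7 and 32.5 CPM in WT libraries with fructose, and 151, 156 and 127 CPM in KO and 81.2, 89.4 and 58.0 CPM in WT libraries with glucose. In normoxia it was 171, 208 and 148 CPM in KO and 92.2, 95.3 and 58.6 CPM in WT with fructose, and 167, 151 and 119.8 CPM in KO and 71.1, 80.2 and 47.6 CPM in WT with glucose. All 12 KO libraries lay above all 12 WT libraries, and the library numbered 3 was the lowest of its group in all 8 groups. The KO change was 1.37 ± 0.24, 0.93 ± 0.24, 1.09 ± 0.24 and 1.14 ± 0.24 in hypoxia fructose, hypoxia glucose, normoxia fructose and normoxia glucose, with adjusted p-values from 0.00012 to 0.00371. In KO cells the hypoxia change was -0.53 ± 0.23 with fructose and -0.01 ± 0.23 with glucose (adjusted p = 0.127 and 0.994 without the library number as a block), and the fructose change was -0.25 ± 0.23 in hypoxia and 0.27 ± 0.23 in normoxia (adjusted p = 0.654 and 0.74). In WT cells Flt1 fell with fructose in hypoxia (-0.70 ± 0.24, adjusted p = 0.0257), a call that was lost without WT hypoxia fructose library 3 (0.128) or WT hypoxia glucose library 1 (0.0713) or 2 (0.107). It fell with hypoxia in WT fructose cells (-0.81 ± 0.24, adjusted p = 0.0244), which was lost without WT hypoxia fructose library 3 (adjusted p = 0.12) or WT normoxia fructose library 1 (0.0857) or 2 (0.0854). In WT normoxia the fructose change of 0.31 ± 0.24 did not pass (adjusted p = 0.342). That is the comparison in which all pairs of same-numbered libraries deviated together, and with the number as a block the change passed (0.31, adjusted p = 0.0201).

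Flt4 (ENSRNOG00000002511, chromosome 10, 35078726 to 35121599, plus strand), the gene of VEGFR3, was higher in KO cells in 1 medium and lower in 2. In hypoxia with fructose KO libraries had 112, 113 and 108 CPM and WT libraries 72.5, 73.7 and 64.7 CPM, and with glucose KO libraries had 127, 120.5 and 114 CPM and WT libraries 142, 145 and 138 CPM. KO libraries were all above WT with fructose and all below with glucose. In normoxia the values were 100.4, 101 and 86.1 CPM in KO and 98.0, 91.2 and 106 CPM in WT with fructose, and 99.3, 99.3 and 96.9 CPM in KO and 148, 146 and 149 CPM in WT with glucose. Here the genotypes overlapped with fructose and KO lay below WT with glucose. The KO change was 0.66 ± 0.071 in hypoxia fructose, -0.23 ± 0.069 in hypoxia glucose and -0.58 ± 0.070 in normoxia glucose (adjusted p = 2.50e-08, 0.00847 and 2.35e-07). In normoxia fructose it was -0.04 ± 0.070 (adjusted p = 0.655). The fructose changes of -0.12 ± 0.070 in hypoxia and -0.04 ± 0.070 in normoxia did not pass in KO cells (adjusted p = 0.391 and 0.897). In WT cells fructose lowered Flt4, with log2 changes of -1.01 ± 0.071 in hypoxia and -0.59 ± 0.070 in normoxia. Hypoxia raised Flt4 in KO glucose cells (0.29 ± 0.070, adjusted p = 0.00566). The rise in KO fructose cells (0.21 ± 0.070, adjusted p = 0.0325) was lost without the filter on low counts (0.0699), and without KO hypoxia fructose library 1 (0.0957) or 2 (0.0877) or KO normoxia fructose library 3 (0.207). In WT fructose cells hypoxia lowered it (-0.48 ± 0.071, adjusted p = 1.44e-05).

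Kdr (ENSRNOG00000046829, chromosome 14, 34727623 to 34787183, plus strand), the gene of the main signalling receptor for VEGF-A, was close to undetected. In hypoxia with fructose KO libraries held 0, 0 and 0 counts and WT libraries 9, 3 and 7 counts, and with glucose KO libraries held 3, 1 and 0 and WT libraries 4, 4 and 3 counts. In normoxia KO libraries held 2, 0 and 0 and WT libraries 4, 5 and 3 counts with fructose, and KO libraries 3, 0 and 0 and WT libraries 6, 0 and 0 counts with glucose. Summed over 12 libraries each, KO cells had 9 counts and WT cells 48, and 10 of the 24 libraries had 0. In hypoxia with fructose the level was at least 6.79-fold lower in KO than in WT cells, taking 3 counts over the KO group as the floor. That value covers counting error only, and in edgeR's test without the filter on low counts, over 22227 genes, the adjusted p was 0.00809. In normoxia with fructose the WT level was 6.15-fold that of KO (95% Clopper-Pearson interval 1.37 to 56.6, counting error only), with adjusted p = 0.197 in the unfiltered edgeR test.

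Nrp1 (ENSRNOG00000010744, chromosome 19, 61332351 to 61485858, plus strand), the co-receptor for VEGF-A and semaphorin 3A, was lower in KO cells in every medium and fell in hypoxia in all 4 genotype and sugar pairs. Its level in hypoxia was 24.4, 22.1 and 23.0 CPM in KO and 49.5, 45.0 and 47.0 CPM in WT libraries with fructose, and 30.4, 31.5 and 30.0 CPM in KO and 76.8, 69.1 and 73.1 CPM in WT libraries with glucose. In normoxia it was 36.9, 39.7 and 43.6 CPM in KO and 73.5, 68.3 and 89.1 CPM in WT with fructose, and 35.8, 39.6 and 37.4 CPM in KO and 109, 86.3 and 103 CPM in WT with glucose. Each of the 12 KO libraries was below each of the 12 WT libraries. The KO change was -1.03 ± 0.098, -1.25 ± 0.096, -0.94 ± 0.095 and -1.40 ± 0.095 in hypoxia fructose, hypoxia glucose, normoxia fructose and normoxia glucose, with adjusted p-values of at most 9.80e-09. The hypoxia change was -0.79 ± 0.098 in KO fructose cells (adjusted p = 1.71e-06) and -0.29 ± 0.097 in KO glucose cells (adjusted p = 0.043). The KO glucose call was lost without the filter on low counts (0.0552), and without KO hypoxia glucose library 1 (0.116), 2 (0.0698) or 3 (0.117), KO normoxia glucose library 1 (0.0595), 2 (0.157) or 3 (0.0743) or KO normoxia fructose library 2 (0.0503). In WT cells the hypoxia change was -0.71 ± 0.094 with fructose and -0.44 ± 0.092 with glucose (adjusted p = 4.03e-06 and 0.00324). The fructose change in KO hypoxia of -0.40 ± 0.098 passed at 0.0133 but not without KO hypoxia fructose library 2 or KO hypoxia glucose library 2 (0.0632 each), and in KO normoxia it was 0.09 ± 0.096 (adjusted p = 0.798). Fructose lowered Nrp1 in WT cells, with log2 changes of -0.63 ± 0.094 in hypoxia and -0.37 ± 0.092 in normoxia.

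Nrp2 (ENSRNOG00000031232, chromosome 9, 69497121 to 69612087, plus strand), the co-receptor for VEGF-C and semaphorin 3F, rose with fructose in WT cells and showed no passing change with fructose in KO cells. In hypoxia its level was 322, 311 and 293 CPM in KO and 595, 628 and 623 CPM in WT libraries with fructose, and 353, 324 and 286 CPM in KO and 330.4, 315 and 294 CPM in WT libraries with glucose. In normoxia it was 360.3, 364 and 364 CPM in KO and 591, 573 and 552 CPM in WT with fructose, and 367, 371 and 336 CPM in KO and 424, 363 and 416 CPM in WT with glucose. The 6 WT fructose libraries lay above the other 18. The fructose change in KO cells was -0.06 ± 0.075 in hypoxia and 0.02 ± 0.075 in normoxia (adjusted p = 0.785 and 0.969), against 0.97 ± 0.076 and 0.51 ± 0.075 in WT cells (adjusted p = 1.95e-10 and 6.60e-06). With fructose the level was lower in KO than in WT cells, with log2 changes of -0.99 ± 0.076 in hypoxia and -0.66 ± 0.076 in normoxia. With glucose the KO changes of 0.04 ± 0.075 in hypoxia and -0.17 ± 0.075 in normoxia did not pass (adjusted p = 0.721 and 0.0763), though the normoxia change did without WT normoxia glucose library 2 (0.0223). Hypoxia lowered Nrp2 in KO fructose cells (-0.23 ± 0.075, adjusted p = 0.0312), a call lost without the filter on low counts (0.0513), and without KO hypoxia fructose library 2 (0.0606) or 3 (0.125) or KO normoxia fructose library 1 (0.0698), 2 (0.0806) or 3 (0.074). It also lowered Nrp2 in WT glucose cells (-0.36 ± 0.075, adjusted p = 0.00368).

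Counted over the 8 tested genes, all 8 differed between KO and WT cells in hypoxia with fructose, where 54.5% of all genes tested passed. Of these, 3 were higher in KO and 5 lower, against 25.7% and 28.8% of all genes. In hypoxia with glucose 6 passed (48.4% of all genes), 4 higher and 2 lower (24.3% and 24.1%). In normoxia with fructose 6 passed (53.6%), 1 higher and 5 lower (25.7% and 28%). In normoxia with glucose 4 passed (46.4%), 2 higher and 2 lower (22.7% and 23.7%). With about as many of all genes past the threshold as not, these counts are not read as particular to the family. Flt1 and Nrp1 were the genes called in the same direction in all 4 media, Flt1 higher and Nrp1 lower. The median absolute log2 change of the 8 was 1.01, 0.37, 0.78 and 0.43 in hypoxia fructose, hypoxia glucose, normoxia fructose and normoxia glucose, beside 0.45, 0.37, 0.44 and 0.37 over all genes.

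Fructose against glucose called 2 of the 8 genes in KO hypoxia, Vegfa higher and Nrp1 lower, where 5.42% of all genes passed (2.69% higher and 2.73% lower). Without KO hypoxia fructose library 2 or KO hypoxia glucose library 2 it called 1. The 801 genes called in all became 455 without KO hypoxia glucose library 2, and 532 or fewer without KO hypoxia glucose library 1 or KO hypoxia fructose library 1 or 3. In KO normoxia it called 1, Vegfb higher, where 1.79% of all genes passed (1.14% higher and 0.65% lower). Without KO normoxia fructose library 1 or 3 or KO normoxia glucose library 1 or 2 it called 0. The 265 genes called in all became 149 and 155 without KO normoxia fructose library 1 or 2, and 150 and 145 without KO normoxia glucose library 2 or 3. In WT hypoxia it called all 8 (45.5% of all genes), 4 higher and 4 lower (24.6% and 20.9%), and in WT normoxia 7 (37.9%), 4 higher and 3 lower (19.9% and 17.9%). In both WT comparisons Vegfa, Vegfb, Vegfc and Nrp2 rose and Pgf, Flt4 and Nrp1 fell. The median absolute change of the 8 in KO cells was 0.24 in hypoxia and 0.13 in normoxia, beside 0.15 and 0.13 over all genes. In WT cells it was 0.89 in hypoxia and 0.55 in normoxia, beside 0.39 and 0.33 over all genes. Marker sums moved with sugar in WT cells too. The smooth muscle and pericyte sum was 325.6 to 334.5 CPM with fructose and 94.28 to 106.7 CPM with glucose in WT hypoxia, and 206.1 to 293.4 CPM with fructose and 77.65 to 83.81 CPM with glucose in WT normoxia. The fibroblast sum was 5958 to 6567 CPM with fructose and 12790 to 13790 CPM with glucose in WT hypoxia, and 8756 to 10050 CPM with fructose and 14340 to 17940 CPM with glucose in WT normoxia. Their part in the fructose results was not tested.

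Hypoxia against normoxia called 5 of the 8 genes in KO fructose cells, where 20% of all genes passed, 3 higher and 2 lower (9.71% and 10.3% of all genes), and 3 without KO hypoxia fructose library 2 or KO normoxia fructose library 3. It called 4 in KO glucose cells (14%), 3 higher and 1 lower (7.96% and 6.07%), and 5 in WT fructose cells (21.2%), 2 higher and 3 lower (11.3% and 9.91%). In WT glucose cells 4 passed (4.81%), 2 higher and 2 lower (3.39% and 1.42%). Vegfa and Pgf rose and Nrp1 fell in each. In WT glucose cells the 2 rises were Vegfa, 3.24-fold, and Pgf, 2.56-fold, and the 2 falls were Nrp1 and Nrp2. By size of change over all 14770 genes, Pgf ranked 60th in KO glucose and 120th in KO fructose cells, and Vegfa ranked 303rd in WT glucose cells. The median absolute change of the 8 was 0.38, 0.25, 0.59 and 0.28 in KO fructose, KO glucose, WT fructose and WT glucose cells, beside 0.23, 0.20, 0.23 and 0.16 over all genes. These comparisons share groups with the genotype and sugar comparisons, so the values stand side by side and are not independent.

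**Figure D3:**
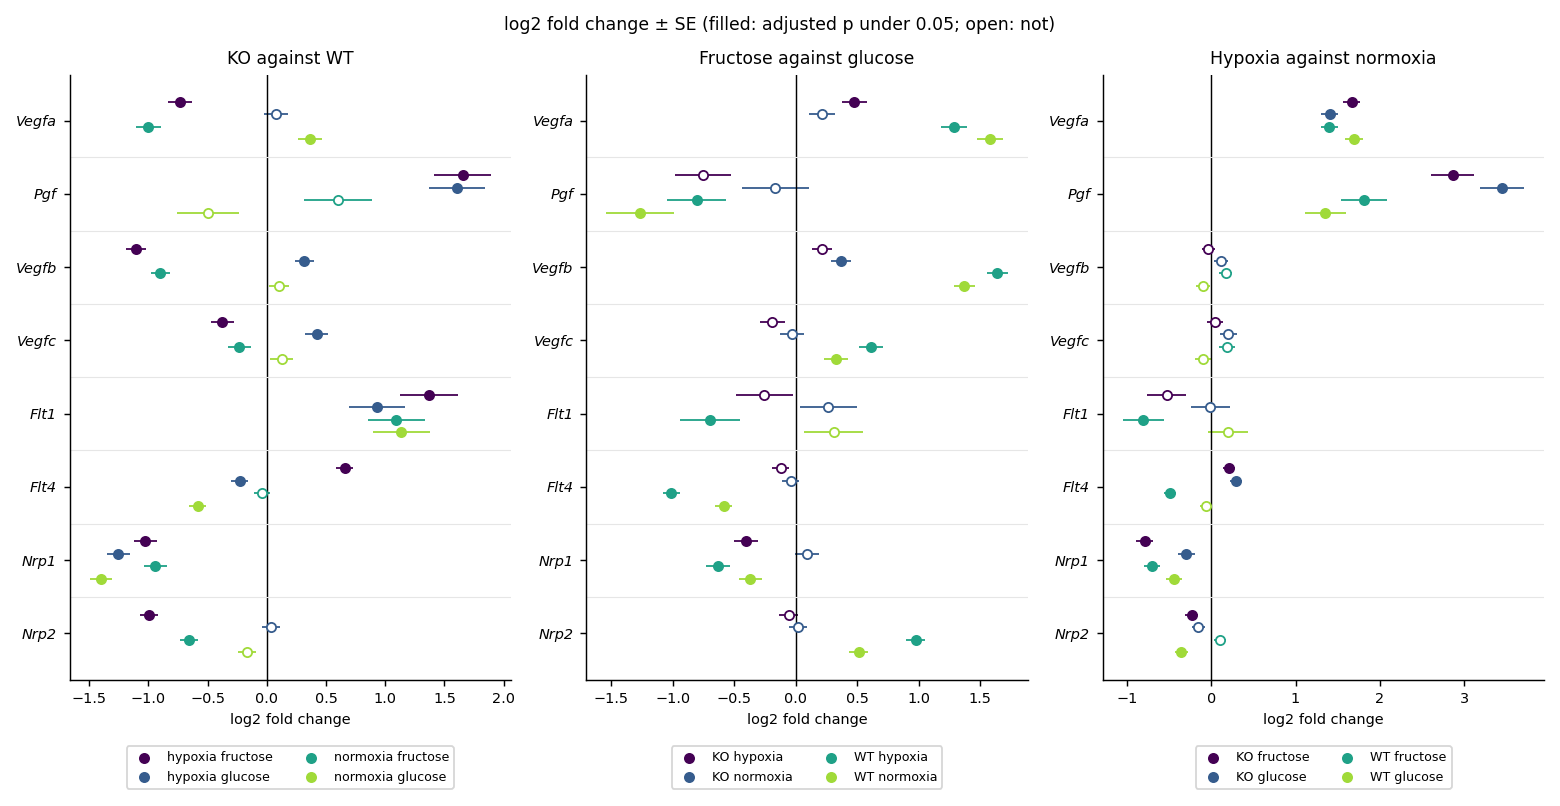
Log2 fold change (horizontal axis) of the 8 tested genes (rows) for KO against WT in 4 media (left), fructose against glucose in 4 genotype and oxygen pairs (middle) and hypoxia against normoxia in 4 genotype and sugar pairs (right). Points are edgeR estimates, bars standard errors, and filled points have an adjusted p under 0.05. Flt1 lies right of 0 and Nrp1 left of 0 in all 4 media of the left panel, and in the right panel Vegfa and Pgf lie right of 0 in all 4 pairs.

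Whether a response differed between genotypes was tested as an interaction. The fructose response in KO minus that in WT cells passed for 5 of the 8 genes in hypoxia, where 25.6% of all genes passed, 1 positive and 4 negative (10.7% and 14.9% of all genes). It passed for 6 in normoxia (19.1%), 3 positive and 3 negative (9.15% and 9.99%). Vegfa had -0.81 ± 0.14 in hypoxia and -1.36 ± 0.15 in normoxia, Vegfb -1.42 ± 0.12 and -1.005 ± 0.12, and Nrp2 -1.03 ± 0.11 and -0.49 ± 0.11. The fructose rise of these 3 genes was thus smaller in KO than in WT cells. Flt4 had 0.89 ± 0.099 in hypoxia and 0.54 ± 0.099 in normoxia, a smaller fall in KO. Vegfc passed in hypoxia (-0.80 ± 0.14, adjusted p = 0.000122) and not in normoxia (-0.36 ± 0.14, adjusted p = 0.0741), where it did without WT hypoxia fructose library 2 (0.0488) or WT normoxia fructose library 3 (0.0251). In normoxia Nrp1 also passed (0.46 ± 0.13, adjusted p = 0.0156), but not without KO normoxia fructose library 3 (0.0562) or WT normoxia glucose library 1 (0.0576). Pgf passed narrowly (1.10 ± 0.39, adjusted p = 0.0489) and was lost without the filter on low counts (0.0542). It was also lost without any 1 of the KO hypoxia or WT hypoxia fructose libraries or WT hypoxia glucose library 1 (0.0527 to 0.0583), KO normoxia fructose library 2 (0.058) or 3 (0.17), KO normoxia glucose library 3 (0.136), WT normoxia fructose library 1 (0.101) or 3 (0.11), or WT normoxia glucose library 1 (0.112) or 2 (0.127).

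The hypoxia response in KO minus that in WT cells passed for 1 gene with each sugar. With glucose it was Pgf (2.10 ± 0.35, adjusted p = 0.00737), among 0.183% of all genes called (0.169% positive and 0.0135% negative). The number of all genes called was 27, and 12 without KO hypoxia glucose library 1, WT hypoxia glucose library 2 or WT normoxia glucose library 1, 13 without KO normoxia glucose library 1, and 14 without KO normoxia glucose library 2 or 3. It was 16 without WT hypoxia glucose library 1 or WT normoxia glucose library 3, and 17 without KO hypoxia glucose library 2 or KO normoxia fructose library 1. With fructose it was Flt4 (0.70 ± 0.10, adjusted p = 0.000357), where 2.11% of all genes passed (1.04% positive and 1.07% negative). The difference for Pgf with fructose was 1.05 ± 0.37 and did not pass (adjusted p = 0.152). For Vegfa the difference was 0.26 ± 0.14 with fructose and -0.29 ± 0.15 with glucose, and a difference in its hypoxia response between genotypes was not detected (adjusted p = 0.398 and 0.714). The hypoxia response with fructose minus that with glucose passed in WT cells for Flt4 (-0.42 ± 0.099, adjusted p = 0.0162) and Nrp2 (0.46 ± 0.11, adjusted p = 0.0151), with 3.27% of all genes called (2.13% positive and 1.14% negative). The Flt4 value was lost without WT hypoxia fructose library 3 (0.0565) or WT normoxia fructose library 3 (0.0558), and the Nrp2 value without WT normoxia glucose library 1 (0.054), so that 1 of the 2 passed in each case. Without that last library 266 of all genes were called, against 483 with it. The largest value of the 8 in WT cells was that of Flt1, at -1.01 ± 0.34. It did not pass in edgeR (adjusted p = 0.122) and passed in DESeq2's Wald test (adjusted p = 0.0361). In KO cells edgeR called 0 of the 8 in that test, and 1 gene of all tested (0.00677%, the change being negative), with 4 genes without WT normoxia glucose library 1 and 6 without library 3.

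**Figure D4:**
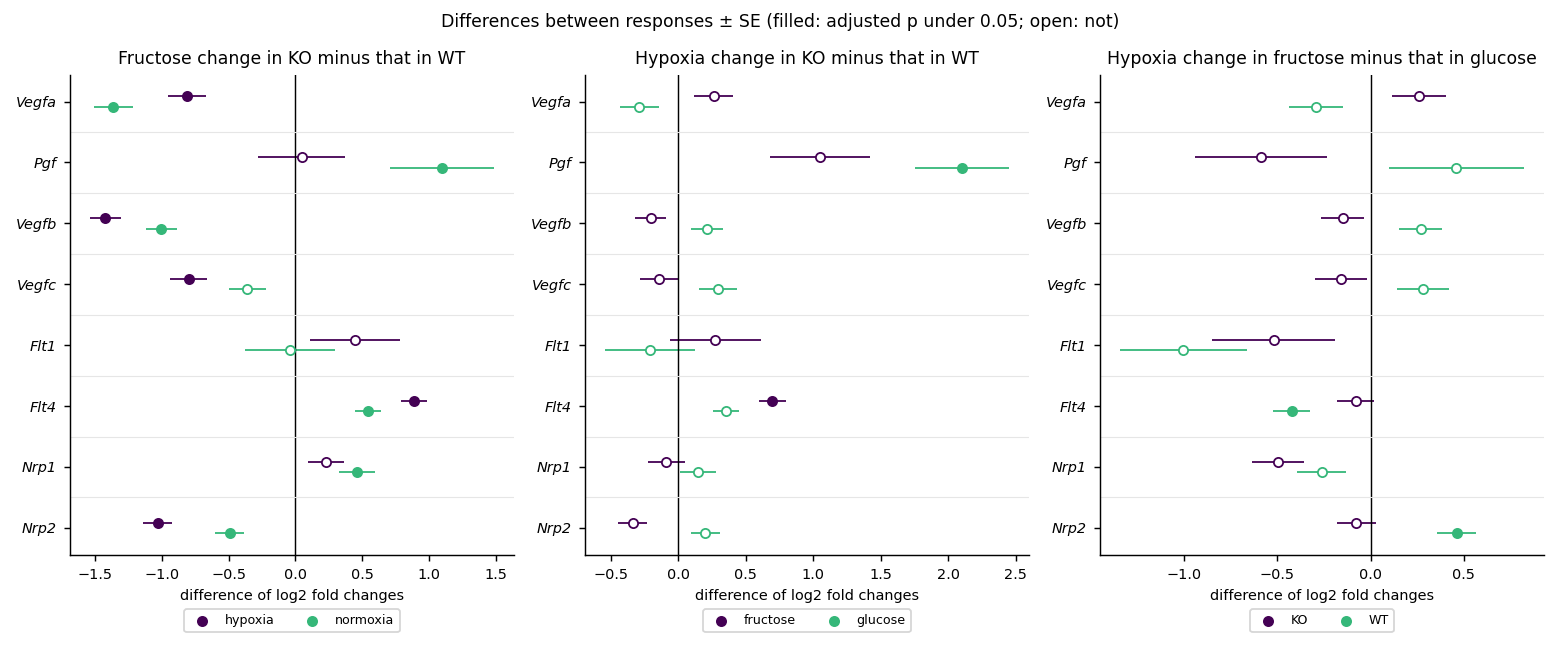
Difference between log2 fold changes (horizontal axis) of the 8 tested genes (rows): fructose response in KO minus that in WT (left), hypoxia response in KO minus that in WT (middle), and hypoxia response with fructose minus that with glucose (right). Points are edgeR estimates, bars standard errors, and filled points have an adjusted p under 0.05. In the left panel Vegfa, Vegfb and Nrp2 lie left of 0 and Flt4 right of 0 in both oxygen conditions, and in the middle panel Pgf with glucose is the point farthest from 0.

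The genes around the family were described by lists, and the shares of all genes called in each comparison are those given above. Between KO and WT cells these were 54.5, 48.4, 53.6 and 46.4% in hypoxia fructose, hypoxia glucose, normoxia fructose and normoxia glucose. List counts of KO against WT are therefore not read as particular to a list. The list of hypoxia-inducible reference genes had 25 tested entries, with Pfkfb3 itself among them and 2 entries for Pfkfb4. Of these, 21 were higher in hypoxia in KO fructose, 20 in KO glucose, 23 in WT fructose and 22 in WT glucose cells. The KO counts are limited by P4ha2, which averaged 0.097 CPM in KO and 300.9 CPM in WT libraries. They are also limited by Egln3, which averaged 0 CPM in KO and 1.15 CPM in WT libraries. In hypoxia 1 of the 25 was lower in KO fructose cells, and the medians were 1.45, 1.22, 1.84 and 1.39 on the log2 scale beside -0.01, 0.00, -0.01 and -0.02 over all genes. Among them Pdk1, which holds pyruvate back from mitochondria, had 4.02 ± 0.11 in KO fructose and 3.72 ± 0.10 in WT fructose cells. In hypoxia 2 of the 25 were higher with fructose than with glucose in KO cells, and 19 in WT cells, led by the glucose transporter gene Slc2a1 (1.60 ± 0.11), with medians of 0.12 in KO and 0.71 in WT cells. In normoxia the same list had 9 entries higher and 4 lower with fructose in WT cells, Hk2 at 1.22 ± 0.10 and Car9 at -1.21 ± 0.11.

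Of 7 tested genes that make or control the HIF factors, 1 was higher and 2 lower in KO than in WT cells in hypoxia with fructose, 2 and 2 in hypoxia with glucose, 4 and 3 in normoxia with fructose, and 4 and 2 in normoxia with glucose (medians 0.04, 0.18, 0.18 and 0.20, beside -0.03, 0.01, -0.03 and 0.02 over all genes). Hif1a, the oxygen-regulated subunit, was higher in KO by 0.28 ± 0.078 in hypoxia with fructose, 0.49 ± 0.079 in hypoxia with glucose and 0.42 ± 0.079 in normoxia with glucose. Its fructose change in WT cells was 0.40 ± 0.079 in hypoxia and 0.28 ± 0.079 in normoxia. Arnt2, a partner subunit, was lower in KO, at -2.33 ± 0.20 in hypoxia fructose, -1.57 ± 0.19 in hypoxia glucose, -3.73 ± 0.22 in normoxia fructose and -2.30 ± 0.20 in normoxia glucose. Egln3, a prolyl hydroxylase gene that hypoxia induces, had 0 counts in all 12 KO libraries, which puts it at least 45.0-fold lower than in WT in hypoxia with fructose and at least 38.2-fold lower in hypoxia with glucose, taking 3 counts in the KO group as the floor.

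Of 9 tested genes of the ATF4 stress response, 3 rose with fructose in KO hypoxia and 0 passed in KO normoxia (medians 0.33 and 0.08 on the log2 scale, beside 0.00 and 0.00 over all genes). In WT cells 8 rose and 1 fell with fructose, in hypoxia as in normoxia (medians 0.89 and 0.91, beside 0.01 and 0.02 over all genes). Ddit3, a stress transcription factor gene, rose by 1.69 ± 0.13 in WT hypoxia and 1.36 ± 0.13 in WT normoxia, and its response in KO minus that in WT was -1.36 ± 0.18 in hypoxia and -1.59 ± 0.19 in normoxia (adjusted p = 8.41e-06 and 2.36e-06). Slc7a11, the cystine transporter gene, rose by 1.02 ± 0.19 in KO hypoxia, 2.01 ± 0.20 in WT hypoxia and 2.25 ± 0.20 in WT normoxia. Between KO and WT cells 2 of the 9 were higher and 4 lower in KO in hypoxia with fructose, 4 and 0 in hypoxia with glucose, 3 and 4 in normoxia with fructose, and 9 and 0 in normoxia with glucose (medians -0.235, 0.346, -0.202 and 0.861). In the last of these Asns, the asparagine synthetase gene, had 1.06 ± 0.14.

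Receptor partners and signal transducers downstream of the receptors were called in both directions, as were all genes tested. Of 42 tested transducers, 17 were higher and 13 lower in KO in hypoxia with fructose, 13 and 13 in hypoxia with glucose, 16 and 14 in normoxia with fructose, and 8 and 15 in normoxia with glucose (medians 0.05, 0.08, 0.08 and 0.00). The p38 target kinase gene Mapkapk2 was lower in KO in hypoxia with fructose (-1.47 ± 0.073), as was Hspb1 (-1.68 ± 0.13), which encodes a heat shock protein phosphorylated in that pathway. Pla2g4a, which releases arachidonic acid, had 0 to 13 counts per KO group and was at least 76.7-fold lower than in WT in normoxia with glucose. Of 8 tested partners, 4 were higher and 4 lower in KO in hypoxia with fructose, 2 and 2 in hypoxia with glucose, 3 and 3 in normoxia with fructose and 2 and 3 in normoxia with glucose (medians -0.06, 0.15, 0.00 and 0.10). Of these the phosphatase gene Ptprj, whose product acts on VEGFR2, had the lowest values relative to WT, at -4.46 ± 0.15, -4.61 ± 0.15, -4.43 ± 0.15 and -4.65 ± 0.15 in the order hypoxia fructose, hypoxia glucose, normoxia fructose, normoxia glucose. The heparan sulphate carrier gene Gpc1 was higher in KO in the same 4 media (0.78 ± 0.11, 1.13 ± 0.11, 0.56 ± 0.11 and 0.81 ± 0.11). Hypoxia raised Map2k1, which encodes the kinase MEK1, in KO fructose, KO glucose, WT fructose and WT glucose cells by 1.26 ± 0.091, 1.002 ± 0.090, 1.25 ± 0.091 and 0.66 ± 0.090, and it was the 1 transducer called in WT glucose cells.

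Of 20 genes that VEGF is known to induce in endothelial cells, 14 were tested. With fructose 1 was higher and 0 lower in KO cells in each oxygen condition (medians 0.42 in hypoxia and 0.11 in normoxia), against 8 higher and 1 lower in WT hypoxia and 6 higher and 0 lower in WT normoxia (medians 0.59 and 0.61). Dll4, the tip-cell Notch ligand, averaged 3.81 CPM with fructose and 0.229 CPM with glucose in WT hypoxia (log2 change 4.06 ± 0.75, adjusted p = 9.36e-05). Rcan1, a calcineurin inhibitor, was the gene called in KO cells, by 0.37 ± 0.084 in hypoxia and 0.33 ± 0.084 in normoxia. Apln, the apelin gene, rose in hypoxia in KO fructose, KO glucose, WT fructose and WT glucose cells by 2.60 ± 0.18, 2.40 ± 0.18, 3.31 ± 0.19 and 2.25 ± 0.18. Of 10 tested Notch genes, 2 were higher and 3 lower in KO in hypoxia with either sugar, 3 and 4 in normoxia fructose and 2 and 4 in normoxia glucose (medians -0.23, 0.17, -0.39 and 0.09 in the order hypoxia fructose, hypoxia glucose, normoxia fructose, normoxia glucose). Notch3, the receptor best known from mural cells, held 1 to 5 counts per KO group and averaged 27.7, 20.6, 12.7 and 23.0 CPM in WT hypoxia fructose, hypoxia glucose, normoxia fructose and normoxia glucose.

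Genes that compete for or process the ligands were counted in the same way. Of 12 tested class 3 semaphorins and plexins, 3 were higher and 8 lower in KO in hypoxia with fructose, 3 and 6 in hypoxia with glucose, 2 and 7 in normoxia with fructose and 2 and 6 in normoxia with glucose (medians -0.42, -0.42, -0.32 and -0.36). The semaphorins are the competing neuropilin ligands, and the plexins of the list include the B types Plxnb1 and Plxnb2. Plxnd1, the endothelial semaphorin receptor gene, averaged 0.410 CPM in KO and 2.39 CPM in WT in hypoxia with fructose, and 0.204 CPM in KO and 4.81 CPM in WT in normoxia with glucose. Fructose lowered Sema3g in WT cells (-2.91 ± 0.46 in hypoxia and -2.22 ± 0.42 in normoxia), and no gene of this list was called for fructose in KO cells. Of 4 tested genes for VEGF-C processing, 1 was higher and 2 lower in KO in hypoxia fructose and in normoxia fructose, 2 and 1 in hypoxia glucose and 1 and 1 in normoxia glucose (medians -0.28 in hypoxia fructose, -0.40 in normoxia fructose, 0.19 in hypoxia glucose and -0.07 in normoxia glucose). Adamts3, the protease that activates VEGF-C, had 0 counts in every KO library and was lower than in WT by at least 94.6-fold in hypoxia fructose, 66.4-fold in hypoxia glucose, 60.1-fold in normoxia fructose and 37.3-fold in normoxia glucose. Furin, which cleaves the VEGF-C precursor, passed in KO against WT in hypoxia with glucose only (0.26 ± 0.095, adjusted p = 0.0246). Of the 4 tested genes of the angiopoietin and Tie list, 2 were higher in KO in each medium, and 0, 2, 1 and 2 were lower in hypoxia fructose, hypoxia glucose, normoxia fructose and normoxia glucose (medians 1.01, 0.015, 0.28 and 0.30). The angiopoietin Angpt4 was higher in KO in all 4 media, and in hypoxia with fructose its mean was 39.5 CPM in KO libraries and 9.48 CPM in WT libraries. Of 3 tested PDGF genes 1 was higher and 2 lower in KO in 3 media, and 2 and 0 in hypoxia with glucose (medians -0.34, 0.21, -0.38 and -0.26 in the same order). Pdgfrb, the mural-cell receptor gene, was higher in KO in all 4 media (log2 change 1.42 to 1.58). The KO against WT medians given for lists were the same with genes at 0 counts set to their bound.

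The level of each gene was set beside that of 9876 others over the 24 libraries, as a description that mixes genotype, sugar and oxygen, since libraries of a group share all 3 factors. Vegfa was most like Hk2, the hexokinase gene (Pearson r = 0.977 of log2 CPM), followed by Nabp1 (0.952) and Gpr108 (0.946). Pgf was most like the glycolytic genes Ldha (0.932) and Gpi (0.926) and then Fam162a (0.918). Vegfb was most like Gna12 (0.976), Mroh1 (0.973) and Slc35f6 (0.969), and Vegfc like Tmem43 (0.884), Manf (0.87) and Sdf2l1 (0.857). For the receptors the closest were Gna15 for Flt1 (0.955), Ppl for Flt4 (0.914), Tyro3 for Nrp1 (0.978) and Map4k4 for Nrp2 (0.976). Among the 8 themselves, the highest r was between Vegfb and Nrp2 (0.856) and the lowest between Vegfb and Flt4 (-0.799).

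The genes lie on 8 chromosomes, with Vegfa and Nrp2 both on chromosome 9 and far apart. Tested genes within 5 Mb of Flt1 had a median log2 KO change of -0.49 in hypoxia with fructose and -0.51 in normoxia with glucose (94 genes), while Flt1 itself had 1.37 and 1.14. Within 5 Mb of Nrp1 the 39 tested neighbours had medians of 0.01 and -0.02 in the same media, while Nrp1 had -1.03 and -1.40. For Vegfb the 237 neighbours had medians of 0.11 in hypoxia with fructose and 0.15 in normoxia with fructose, while Vegfb had -1.10 and -0.90. With fructose the 86 neighbours of Vegfa had -0.63 in hypoxia and -0.55 in normoxia, beside -0.74 and -1.001 for Vegfa. With glucose they had -0.40 and -0.42, beside 0.07 and 0.36. The 59 of Nrp2 had -0.32 and -0.35 with fructose, beside -0.99 and -0.66. The 76 of Flt4 had -0.39 in both oxygen conditions with glucose, beside -0.23 and -0.58. In hypoxia with fructose they had -0.55, beside 0.66. Single neighbours varied widely around these medians. In hypoxia with fructose the SD of their log2 changes was 1.93 for Flt1, 2.38 for Nrp1 and 1.002 for Vegfb. It was 2.53 for Vegfa, 1.18 for Nrp2 and 2.49 for Flt4. The part of position in the KO changes was not tested.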

How the data were processed

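RNA from 24 libraries of a rat PMVEC line was sequenced after 24 h in 25 mM fructose or glucose. The submitters' processing notes name HISAT2, DESeq2 and the build Rnor_6.0. The deposited values are raw counts per gene, paired by the authors with symbols and Rnor_6.0 coordinates. Not given in the sources used here are the counting program, versions and strand setting, and reads shared by overlapping or antisense genes cannot be separated. A column name with a stray hyphen was taken as WT normoxia glucose library 3, and 5 emptied lines are not used here.

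Genes were kept by filterByExpr (minimum count 10, minimum total 15), libraries scaled by TMM (factors 0.909 to 1.064). A quasi-likelihood model in edgeR 4.0.16 (R 4.3.3) was fitted to 8 groups (16 residual degrees of freedom, common biological coefficient of variation 0.146), whose contrasts gave 12 simple comparisons and 6 interactions. The script was tested on simulated data. Standard errors were derived from each log2 change and its F statistic. Alternatives were DESeq2's size factors in edgeR, no filter, DESeq2 1.42.0's Wald test, the replicate number as a block, and leaving out each library. Same-numbered libraries deviated together in all pairs only in fructose against glucose in WT normoxia (correlation 0.12 to 0.218), so the block applies there by that rule. The other 11 comparisons had correlations from -0.034 to 0.279, and in each at least 1 pair fell short.

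The genes and lists were chosen with earlier results of these data known. Named were all 9 genes, Pfkfb3, up to 4 called genes with the largest change per list and comparison, and the 3 genes most correlated with each tested gene, those printed being picked after their values were seen. Promoters were matched by symbol to RefSeq's GRCr8 table. Low counts limit Kdr, and intervals and floors cover counting error only.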

Additional observations from a re-analysis of the deposited data

Results flagged for a closer look

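The results given here are those in which the test of a difference between responses passed, for VEGF ligand and receptor genes in edgeR's quasi-likelihood test with Benjamini-Hochberg adjustment. The fructose response in KO minus that in WT cells in hypoxia was -0.81 ± 0.14 for Vegfa (adjusted p = 0.000153), -1.42 ± 0.12 for Vegfb (3.63e-09), -0.80 ± 0.14 for Vegfc (0.000122), 0.89 ± 0.099 for Flt4 (4.52e-07) and -1.03 ± 0.11 for Nrp2 (1.73e-07). In normoxia it was -1.36 ± 0.15 for Vegfa (adjusted p = 4.16e-07), -1.005 ± 0.12 for Vegfb (1.22e-06), 1.10 ± 0.39 for Pgf (0.0489), 0.54 ± 0.099 for Flt4 (0.00031), 0.46 ± 0.13 for Nrp1 (0.0156) and -0.49 ± 0.11 for Nrp2 (0.00167). The hypoxia response in KO minus that in WT was 0.70 ± 0.10 for Flt4 with fructose (adjusted p = 0.000357) and 2.10 ± 0.35 for Pgf with glucose (0.00737). The hypoxia response with fructose minus that with glucose in WT cells was -0.42 ± 0.099 for Flt4 (adjusted p = 0.0162) and 0.46 ± 0.11 for Nrp2 (0.0151). Of these, the normoxia Pgf value was lost without the filter on low counts (0.0542) and without most single libraries (up to 0.17), and the normoxia Nrp1 value without KO normoxia fructose library 3 (0.0562) or WT normoxia glucose library 1 (0.0576). The WT Flt4 value was lost without WT hypoxia fructose library 3 (0.0565) or WT normoxia fructose library 3 (0.0558), and the WT Nrp2 value without WT normoxia glucose library 1 (0.054).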

How the results depend on the processing

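Over the 8 tested genes and 18 contrasts, DESeq2's size factors, no filter on low counts, DESeq2's Wald test and the replicate number as a block gave 0 changed directions, 14 calls gained and 7 lost in 576 values. Leaving out 1 library gave 21 changed signs, all of values that had not passed, 15 calls gained and 68 lost in 3456 values. The ranges over omitted libraries in which a sign changed were -0.10 to 0.032 for Flt4 in KO against WT in normoxia fructose and -0.038 to 0.115 for Nrp2 in hypoxia glucose. For fructose against glucose they were -0.089 to 0.024 (Vegfc), -0.081 to 0.03 (Flt4) and -0.025 to 0.046 (Nrp2) in KO normoxia, and -0.135 to 0.018 (Nrp2) in KO hypoxia. For hypoxia against normoxia they were -0.135 to 0.099 (Flt1, KO glucose) and -0.098 to 0.02 (Vegfb, KO fructose). For the interaction of genotype with sugar they were -0.234 to 0.149 (Flt1, normoxia) and -0.115 to 0.189 (Pgf, hypoxia), and with oxygen -0.205 to 0.017 (Nrp1, fructose).

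Counts that moved by over 1.5 times were these. For fructose in KO normoxia, 265 genes were called, with 448 in DESeq2, 571 with the block and 145 to 308 without 1 library, and of the VEGF genes 1, with 0 to 1 without 1 library. For fructose in KO hypoxia, 801 genes were called, with 1543 with the block and 455 to 905 without 1 library, and of the VEGF genes 2, with 4 with the block and 1 to 3 without 1 library. For hypoxia, 711 genes were called in WT glucose cells and 1523 with the block, and 2072 in KO glucose cells, 3116 with the block and 1275 to 2245 without 1 library. In KO fructose cells 5 VEGF genes were called for hypoxia, 3 without the filter and 3 to 5 without 1 library. For genotype by oxygen, 27 genes were called with glucose, 59 in DESeq2, 95 with the block and 12 to 30 without 1 library, and 312 with fructose, 604 in DESeq2, 972 with the block and 162 to 352 without 1 library. Of the VEGF genes 1 was called with each sugar, and 2 in DESeq2 with each and 2 with the block with fructose. For sugar by oxygen, 483 genes were called in WT cells, 854 in DESeq2, 1196 with the block and 266 to 504 without 1 library, with 2 VEGF genes and 1 to 2 without 1 library. In KO cells 1 gene was called, 23 in DESeq2, 15 with the block and 1 to 6 without 1 library.

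Same-numbered libraries deviated together in every pair only in fructose against glucose in WT normoxia. In that comparison the block moved the Flt1 p-value to 0.0201 and changed no other call of the 8. Elsewhere at least 1 pair of each comparison fell short, with correlations from -0.034 to 0.279, so a shared part in some pairs is not excluded. There the block gained 8 calls: Nrp2 in KO against WT in normoxia glucose (0.0308), Vegfb and Pgf for fructose in KO hypoxia (0.0445 and 0.0382), Flt1 for hypoxia in KO fructose (0.00046), and in interactions Vegfc and Flt1 for genotype by sugar in normoxia and hypoxia (0.0178 and 0.0192) and Nrp2 for genotype by oxygen with fructose (0.0214), and Flt1 for sugar by oxygen in WT (0.00015). The causes of these changes were not tested. With 3 libraries a group and as few as 21 counts, normoxia values of Pgf are the least precise of the 8, and Kdr could not be tested with the filter.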
